A study of Mus musculus with 5 samples.

Results

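The genes of MHC class II antigen presentation were followed in 5 samples of mouse bone marrow cells sorted as FLT3+ CD11b+, which the labels call progenitors of dendritic cells. The set holds 10 genes, taken by symbol from the platform annotation out of 8251 named genes: the class II chains H2-Aa, H2-Ab1 and H2-Eb1, the invariant chain Cd74, the peptide editors H2-DMa and H2-DMb1, their inhibitors H2-Oa and H2-Ob, the thiol reductase Ifi30 and the transactivator Ciita. All 10 were on the array, through 11 probe sets with a single symbol. Each sample was 1 array of total RNA, and the samples carry only the numbers 1 to 5 within 1 group, with no strain, age, treatment or pool given, so there was no comparison between conditions. Nothing in the labels says that the samples came from separate animals, and p-values therefore measure the spread between these arrays, which may be technical.

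MHC class II molecules are pairs of an alpha and a beta chain that show peptides from endosomes to CD4+ T cells. They fold with the invariant chain, which is cut away in endosomes until a short remnant is left in the groove; H2-DM exchanges that remnant for peptide, and H2-O holds H2-DM back. Dendritic cells, B cells and macrophages use the pathway, and the coactivator CIITA switches most of its genes on together. Dendritic cells gain surface class II as they develop from progenitors and mature.

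Signals are array intensities, each array multiplied by 1 factor so that its median over 12422 probe sets became 103. The question asked of each gene was where its signal lay relative to that median, tested with limma (log2 of signal over the array median against 0, two-sided, Benjamini-Hochberg adjustment over all 8251 named genes). The median gives a rank within an array and is no detection limit, and levels of different probe sets are not compared with each other. Before the test, values under a floor at the 25th percentile of all signals, 30.04, were raised to it. Distances from the median are means of 5 samples on the log2 scale. In bulk RNA, fewer cells with a transcript and less of it per cell cannot be told apart.

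The members lay on both sides of the array median. The invariant chain, H2-DMa and Ifi30 lay above the array median, 3 of 10 members, where 46.0% of all named genes passed the test on that side. H2-Aa, H2-Ab1, H2-Eb1 and H2-Ob lay below it, 4 of 10 members, where 30.3% of all named genes did. H2-DMb1, H2-Oa and Ciita passed on neither side. Counted without a test, 2 of 10 members exceeded the median on all 5 arrays, against 44.5% of all named genes. The median over the members was -0.43 on the log2 scale relative to the array median, beside 0.38 over all named genes.

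**Figure D1:**
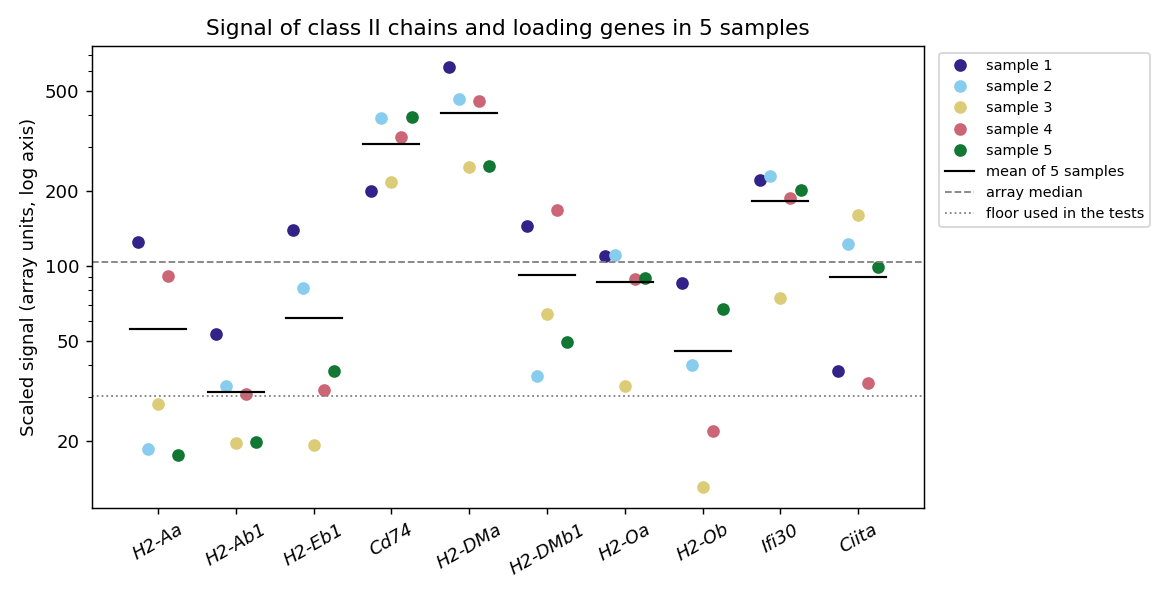
Scaled signal of the 10 genes in each of the 5 samples (log axis, array units), with the mean of 5 samples as a bar. Cd74 and H2-DMa stayed above the array median of 103 in all samples, and all H2-Ab1 and H2-Ob points lay below it.

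The alpha and beta chains had low signals. H2-Aa, the alpha chain of I-A, had signals of 124, 18.5, 28.1, 90.7 and 17.6 in samples 1 to 5. Sample 1 alone was above the array median, sample 4 was near it, and the other samples were under the floor. Its mean log2 distance from the median was -1.06 with a standard error of 0.38 (limma adjusted p = 0.0316). The call was lost without sample 2 (adjusted p = 0.133), sample 3 (0.150) or sample 5 (0.141), each a sample with a low signal.

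H2-Ab1, the beta chain of I-A, had signals of 53.3, 33.0, 19.5, 30.8 and 19.7 in samples 1 to 5. All lay between the 19.9th and the 34.5th percentile of their arrays. Its distance was -1.58 ± 0.16 (SE, limma adjusted p = 1.76e-05), and the call was kept whichever sample was left out. Samples 3 and 5 were under the floor, which limits both the distance and its spread. With a floor of 1 unit the distance was -1.83 (limma adjusted p = 0.00232). H2-Eb1, the beta chain of I-E, had 140, 81.4, 19.2, 31.9 and 37.8. It was above the median only in sample 1, and its distance was -0.97 ± 0.38 (SE, limma adjusted p = 0.0423). That call was kept without sample 1 and lost without sample 2 (adjusted p = 0.0573), sample 3 (0.172), sample 4 (0.165) or sample 5 (0.153).

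Of 3 other chain genes of the locus, 2 were low as well. H2-Ea, the alpha chain partner of H2-Eb1, which RefSeq annotates as a transcribed pseudogene in C57BL/6J, had 34.3, 12.1, 6.99, 10.9 and 6.36. H2-Eb2, a further beta chain gene, had 40.6, 29.7, 14.7, 46.3 and 9.55. Both lay below the median on 5 of 5 arrays, where 2207 of 8251 named genes exceeded it on no array. Both passed the limma test on that side, as did 30.3% of all named genes. H2-DMb2, listed with them and given below, was not called (distance -0.40, limma adjusted p = 0.307). Of the 5 values, 4 of H2-Ea and 3 of H2-Eb2 were under the floor. The floor therefore partly set the distances and spreads tested. Class II chains differ in sequence between mouse strains, and how well the probe sets match the alleles of these animals was not tested.

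CIITA is known to act at class II promoters through proteins bound to short boxes: RFX binds the X box and NF-Y the Y box. RefSeq promoter windows, which run from 250 bases before to 50 after the start of a gene (GRCm38.p6), matched 7 of 10 members, and no windows of Cd74, H2-Ab1 and Ciita were used. The stretches below show the shared layout upstream of the start, 5′ to 3′ on the strand of the gene, with 40 bases before the Y box and 8 after it. Capitals mark the Y box with flanking bases, TGATTGG, and, where it matched, the X box part, which reads AGNNAC followed directly by NGATG (N is any base).
H2-Aa, chr17:34287859-34287913, minus strand: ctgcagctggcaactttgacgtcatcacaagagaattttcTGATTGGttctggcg
H2-Eb1, chr17:34305766-34305820, plus strand: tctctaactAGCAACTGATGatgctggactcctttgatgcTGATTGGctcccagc
H2-DMb1, chr17:34153088-34153142, plus strand: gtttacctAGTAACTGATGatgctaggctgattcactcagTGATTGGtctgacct
H2-Oa, chr17:34092294-34092348, plus strand: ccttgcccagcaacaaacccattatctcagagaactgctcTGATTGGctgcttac
H2-Ob, chr17:34238806-34238860, plus strand: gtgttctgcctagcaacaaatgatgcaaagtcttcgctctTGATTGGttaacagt

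The 7 member genes had 8 windows, with more than 1 for H2-DMa. The Y box core ATTGG, searched on both strands, was in 6 of 8 member windows and in 37.4% of all 32851 windows. The longer TGATTGG contains it and was chosen after the windows were seen. It was in 5 of 8 member windows and in 7.82% of all windows. It began 45 to 63 bases before the start in all 5. The X box part was in 3 of 8 member windows and in 0.968% of all windows, and in that of H2-Oa no ATTGG followed it at the gap searched. The X box part followed by ATTGG at a gap of 10 to 40 bases was in 8 of 32851 windows (0.0244%). These 8 included H2-Eb1 with a gap of 22 bases, H2-DMb1 with 23 and, outside the 10 members, H2-Eb2 with 22. H2-DMa had ATTGG in 1 of its windows, and that of Ifi30 had neither box. Of the members with both boxes at that gap, H2-Eb1 was called below the median and H2-DMb1 was not called.

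The invariant chain, unlike the chains it binds, was called above the array median. The probe sets differ, so this does not compare transcript levels. Cd74 had signals of 199, 391, 217, 327 and 395 in samples 1 to 5. All samples lay above the array median, between the 65.1th and the 80.2th percentile, and the highest was 1.99 times the lowest. Its distance from the median was 1.51 ± 0.20 (SE, limma adjusted p = 0.000132), a call kept whichever sample was left out. Samples 1 and 3 were the low ones, so Cd74 was lowest in the sample where H2-Aa, H2-Ab1 and H2-Eb1 were highest.

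H2-DMa, the alpha chain of the peptide editor, had 625, 464, 249, 458 and 250 in samples 1 to 5 on its brighter probe set. These lay between the 70.6th and the 86.9th percentile. Its distance was 1.89 ± 0.23 (SE, limma adjusted p = 6.48e-05), kept whichever sample was left out. The gene had a second probe set that disagreed, with 98.8, 62.0, 51.0, 52.3 and 29.9, all below the array median and called below it when every probe set was tested (distance -0.92, limma adjusted p = 0.0233). The call for H2-DMa thus holds for 1 of its 2 probe sets.

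H2-DMb1, the beta chain of the same editor, had 144, 36.3, 64.0, 167 and 49.8 in samples 1 to 5. Samples 1 and 4 were above the median and the other samples below it. The distance was -0.42 ± 0.38 (SE, limma adjusted p = 0.342). A probe set shared with the near-identical gene H2-DMb2, which cannot be assigned to either, lay below the median on all 5 arrays, with 32.0, 38.5, 82.8, 44.2 and 10.9. The probe set of H2-DMb2 itself had 57.5, 37.4, 97.0, 92.8 and 153, above the median in sample 5 only.

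H2-O, the inhibitor of H2-DM, is best known from B cells. H2-Oa had 110, 111, 32.9, 88.6 and 89.7 in samples 1 to 5. All but sample 3 lay close to the median, and the distance was -0.38 ± 0.33 (SE, limma adjusted p = 0.315). H2-Ob had 85.3, 40.3, 13.0, 21.8 and 67.1. No sample reached the median, and the distance was -1.17 ± 0.29 (SE, limma adjusted p = 0.00523), kept whichever sample was left out.

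Ifi30, also called GILT, reduces disulfide bonds of antigens in lysosomes. It had 221, 229, 74.1, 187 and 200 in samples 1 to 5. All but sample 3 were above the median, and the distance was 0.71 ± 0.27 (SE, limma adjusted p = 0.0387). The call was lost without sample 1 (adjusted p = 0.176), sample 2 (0.134), sample 4 (0.120) or sample 5 (0.128), and kept without sample 3.

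Ciita, the coactivator of class II genes, which has separate promoters for dendritic cells, B cells and the response to interferon gamma, had 37.9, 122, 159, 33.9 and 99.0 in samples 1 to 5. Samples 2 and 3 were above the median. Its distance was -0.45 ± 0.40 (SE, limma adjusted p = 0.323). Samples 1 and 4, its low ones, were the samples in which H2-Aa and H2-DMb1 were highest.

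**Figure D2:**
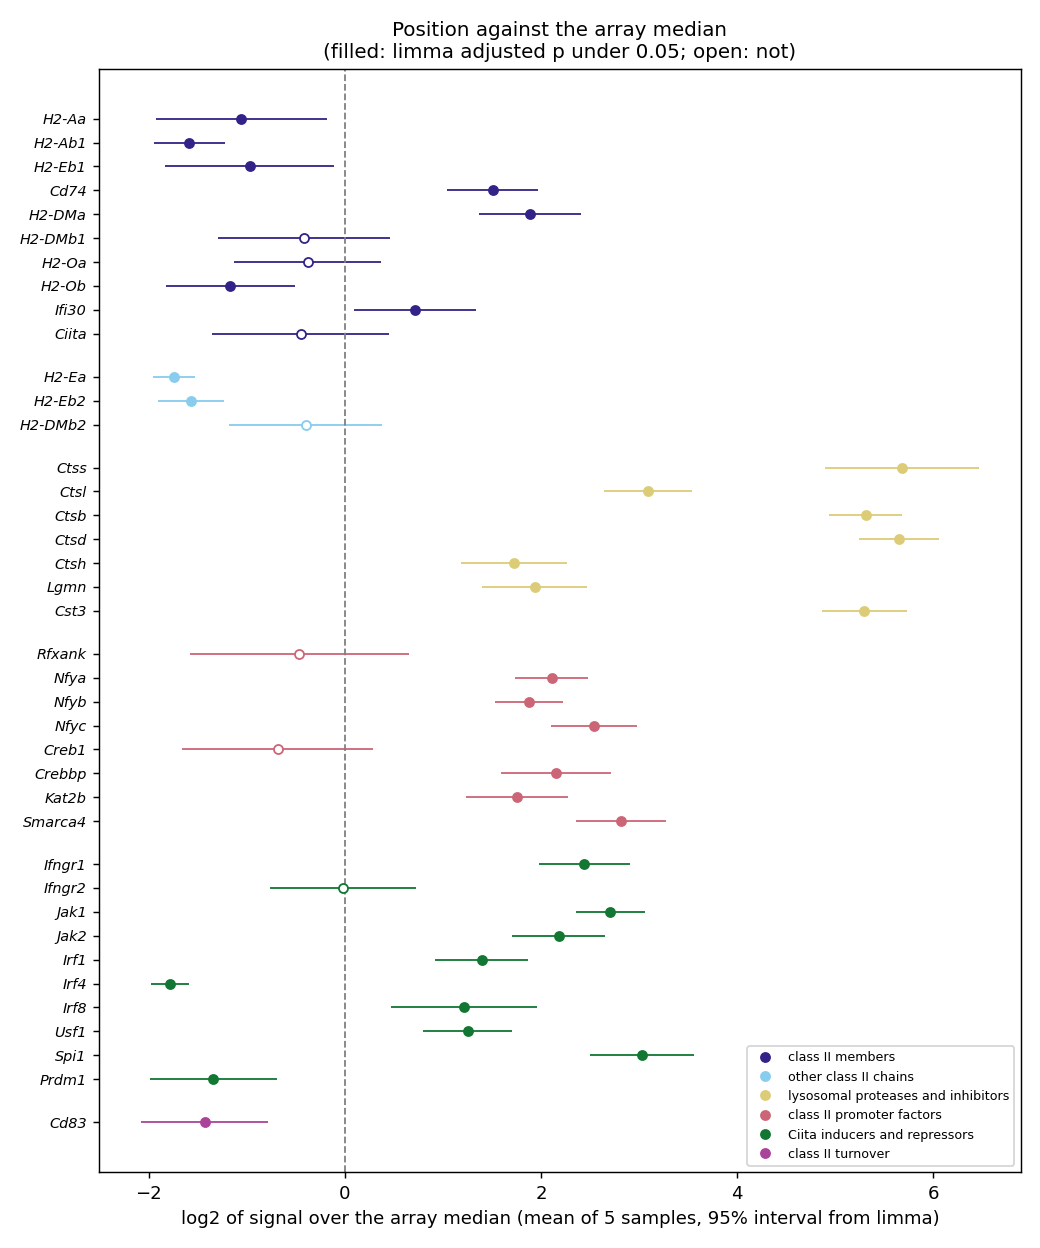
Mean log2 of signal over the array median with its 95% interval from limma for the 10 members and for other genes of the pathway (5 samples; filled points have an adjusted p under 0.05). Members lie on both sides of 0, and all 7 lysosomal protease and inhibitor genes lie above 0.

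Genes that prepare the invariant chain and antigens for loading, and the protease inhibitor gene Cst3, lay above the array median. All 7 genes of the lysosomal protease and inhibitor list exceeded the median on 5 of 5 arrays, against 44.5% of all named genes. All 7 also passed the limma test above it, where 46.0% of all named genes did. Ctss, the cathepsin that makes the last cuts in the invariant chain in dendritic cells, had 2674, 11080, 5796, 9637 and 2526 in samples 1 to 5, lowest in samples 1 and 5. Lgmn, an asparaginyl endopeptidase, had 342, 627, 313, 606 and 239. Cst3, the protease inhibitor cystatin C, had 6198, 3304, 3370, 4712 and 3431, highest in sample 1.

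Of the promoter factors, 8 of 11 were measured, and Rfx5, Rfxap and Ep300 were not named on the array. The limma test placed 6 of the 8 above the median and 0 below it, against 46.0% and 30.3% of all named genes. All 3 NF-Y subunits were called above it: Nfya had a distance of 2.11 ± 0.16, Nfyb 1.88 ± 0.15 and Nfyc 2.54 ± 0.19 (SE, limma adjusted p of 3.13e-06, 3.68e-06 and 2.74e-06). Crebbp and Kat2b, acetyltransferases, and Smarca4, a chromatin remodeller, were also called above it. Rfxank, the ankyrin subunit of RFX, had 272, 125, 18.8, 29.4 and 76.7 (distance -0.47 ± 0.49, limma adjusted p = 0.405), and Creb1, which also binds the X box region, was not called (adjusted p = 0.171).

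Among inducers and repressors of Ciita, 10 of 12 genes were measured, 7 were called above the median and 2 below it. The shares over all named genes were 46.0% above and 30.3% below. Above were Spi1, which encodes PU.1, at 3.03 ± 0.23, the kinases Jak1 and Jak2, the interferon gamma receptor chain Ifngr1 at 2.44 ± 0.20, Irf1, Irf8 and Usf1. Irf8, a factor of dendritic cell and monocyte development, had 82.6, 368, 350, 360 and 208 in samples 1 to 5, below the median only in sample 1. Ifngr2, the other receptor chain, was not called, with 132, 141, 48.3, 174 and 70.8. Irf4 was below the floor in all samples, and Prdm1, which encodes the Ciita repressor BLIMP-1, was called below the median at -1.34 ± 0.28 (SE, limma adjusted p = 0.00216). Of 34 listed genes called above the median, members left out, 13 had a further probe set, and in 7 of these (Ctsb, Nfyc, Smarca4, Jak2, Ighm, Adgre1 and Cd68) at least 1 such probe set was below the median on all 5 arrays. Of the turnover list only Cd83, which keeps class II on the surface of dendritic cells, was measured, and it was called below the median at -1.43 ± 0.28 (SE, limma adjusted p = 0.00152).

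**Figure D3:**
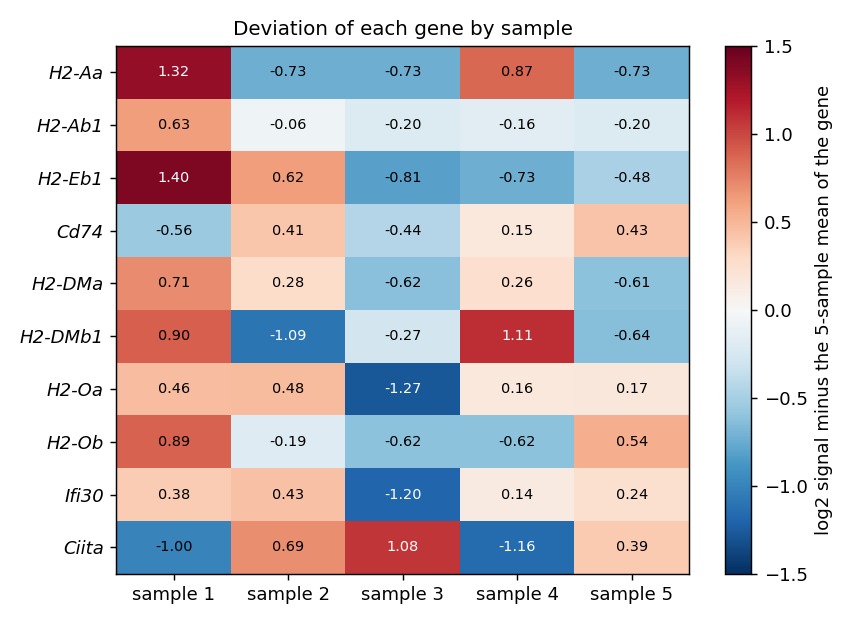
Log2 signal of each gene minus its own mean over the 5 samples, by sample. Sample 3 was below the mean of the gene for 9 of 10 genes and sample 1 above it for 8 of 10, and Ciita went the other way in both.

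The members also differed by sample. In sample 1, 8 of 10 members were above their own 5-sample mean, by a median of 0.67 on the log2 scale, where the median over all named genes was -0.01. In sample 3, 9 of 10 were below their mean, by a median of -0.62, where all named genes had -0.03. Sample 3 held the lowest signal of 6 of 10 members, against 23.3% of all named genes lowest there. Some of these ranks rest on near ties or on values under the floor. H2-Ab1 had 19.5 in sample 3 and 19.7 in sample 5, and H2-Ob 13.0 in sample 3 and 21.8 in sample 4, all under the floor. H2-DMa had 249 in sample 3 and 250 in sample 5. Sample 1 held the highest of 5 of 10, against 24.3% of all named genes. In percentiles of each array it held the highest of 6 of 10, against 23.5% of all named genes. The summed signal of H2-Aa, H2-Ab1 and H2-Eb1 was 317, 133, 66.8, 153 and 75.1 in samples 1 to 5.

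These arrays also stand apart in technical values. Sample 1 was deposited on another scale, with a median of 392 where the other arrays had 66.5 to 81.3. Probe sets at both ends of control transcripts show how much more signal came from the 3′ end. For Gapdh the ratio was 4.52 in sample 3 and 0.896 to 3.42 in the other samples. For Tfrc it was 16.7 in sample 3 and 3.14 to 8.63 in the other samples. For actin sample 4 was highest at 5.20, with 4.15 in sample 3 and 1.08 to 3.003 in the other samples. Their part in the deviations of the class II genes was not tested.

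Whether a member varied more between samples than genes of like signal was tested next. The limma variance test covered 4557 genes with a mean above the median, 3 of them members (Cd74, H2-DMa and Ifi30), and called 0 of these members (0% of all genes tested, 232 at an unadjusted p under 0.05, none of them a member). The lowest adjusted p among the 3 was 0.972. The 7 other members had means under the median and were tested only without that filter, where again 0 of 10 passed. No gene of any kind passed with or without the filter. With it, Apoe had an unadjusted p of 0.000401 and an adjusted p of 0.922 in the limma variance test. A count of 0 members therefore cannot show that the members varied little. The median SD over the members was 0.71 on the log2 scale, beside 0.52 over all named genes. These medians are not matched for signal, and the SD fitted for genes of like signal was larger at lower signal. H2-DMa, Cd74 and Ifi30, from brightest to dimmest, had SDs of 0.59, 0.47 and 0.68. The SDs fitted at their signals were 0.44, 0.46 and 0.57.

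B cells and mature antigen-presenting cells also carry class II, so their markers were set beside the members. Of 10 measured B cell markers, 1 was called above the median (Ighm, many of whose other probe sets lay below it), 2 below it (Cd22 and Cd72) and 7 on neither side. The shares over all named genes were 46.0% above and 30.3% below. Cd79a, a B cell receptor component, had 265, 28.6, 16.7, 123 and 24.4 in samples 1 to 5, and the surrogate light chain gene Vpreb1 had 118, 75.1, 33.8, 132 and 43.1. Both were highest in samples 1 and 4, as were H2-Aa and H2-DMb1. A second probe set of Vpreb1 did not follow, with 97.7, 124, 87.4, 42.3 and 13.5. Counted on 1 probe set per gene, the pattern held for 2 of 10 B cell markers, 2 of 10 members and 11.3% of all named genes. The pattern was that of H2-Aa and H2-DMb1, so the count of members is no result. Among the markers without it, Cd79b and Pax5 were highest in sample 5, Ms4a1 in sample 2 and Igll1 in sample 3. Sample 3 held the lowest signal of 6 of 10 B cell markers and of 6 of 10 members, against 23.3% of all named genes. Of those 6 markers, Cd79a had 3 of 5 values under the floor and Cd22 and Cd72 had 4 each, so sample 3 is not set apart there. The summed signal of the 10 B cell markers was 1504, 1413, 981, 1353 and 1141, and the part of B lineage cells in the class II signals was not tested.

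**Figure D4:**
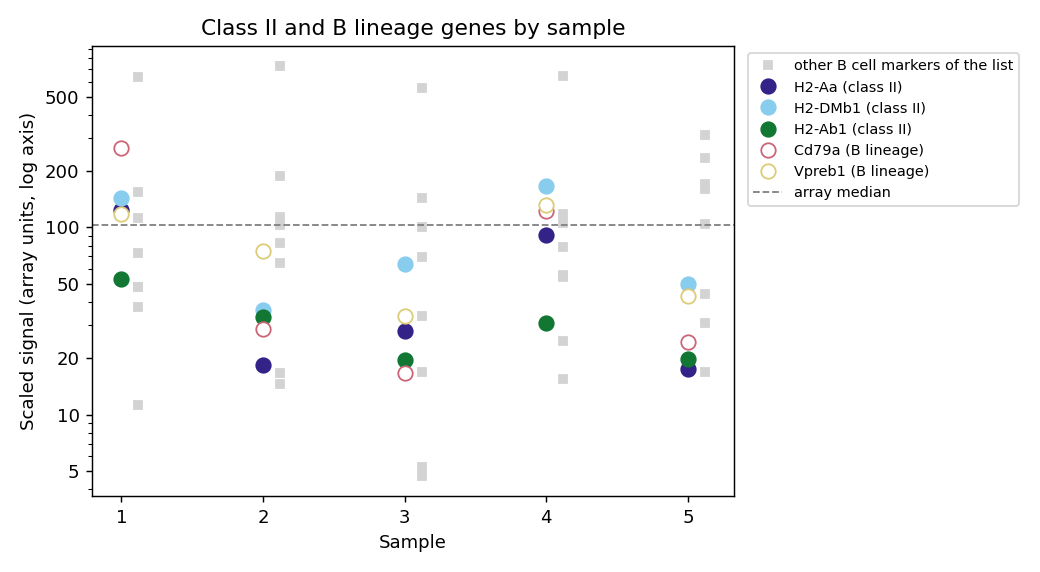
Scaled signal (log axis, array units) of 3 class II genes (filled circles), Cd79a and Vpreb1 (open circles) and the other 8 measured B cell markers (grey squares, Ighm the highest) in samples 1 to 5. H2-Aa, H2-DMb1, Cd79a and Vpreb1 are highest in samples 1 and 4, as are 11.3% of all named genes. H2-Ab1 and the other 8 B cell markers are not.

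Of 10 mature dendritic cell markers, 1 was called above the median (Fscn1, an actin bundler), 3 below it (Ccr7, Cd83 and Ccl17) and 6 on neither side. Their summed signal ran from 924 to 1193. Of 9 macrophage markers, 8 were called above the median, among them Adgre1, which encodes F4/80, and C1qb, a complement subunit. Their summed signal was 5585, 6172, 3429, 5034 and 3127 in samples 1 to 5, low in samples 3 and 5. Apoe, the remaining one, had 1158, 1109, 83.4, 16.8 and 80.7, high in samples 1 and 2, in which H2-Eb1 was also highest. A further probe set of Apoe did not follow. It was under the floor on all 5 arrays, highest in sample 1 at 29.7 and lowest in sample 2 at 2.99. The share of all named genes highest in samples 1 and 2 was not counted. The summed signal of the 4 gate and progenitor genes was 1618, 2175, 855, 1887 and 1126, lowest in sample 3, where 6 of 10 members were lowest. Singly, 2 of the 4 were lowest there, Itgam and Cd34, while Flt3 was lowest in sample 5 and Kit in sample 1. A further probe set of Cd34 was lowest in sample 4. Of 4 measured plasmacytoid dendritic cell markers, 1 (Tcf4) was called above the median and 0 below it. Of the genes of the gate and of progenitors, Flt3, Itgam (CD11b) and Kit were called above the median and Cd34 was not (limma adjusted p = 0.486). Beside each of these lists, 46.0% of all named genes were called above the median and 30.3% below it. The part of these cell types in the class II signals was not tested.

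Genes with the most similar profile over the 5 samples were sought among those with a mean above the median, by the root mean square difference of their log2 deviations. Nearest to Cd74 among 4556 genes were Sys1 (0.08), a Golgi trafficking protein, Pigk (0.09), a subunit of the GPI transamidase, Erlin1 (0.09), of the endoplasmic reticulum membrane, Aopep (0.12), an aminopeptidase, and Agrn (0.13), agrin. Nearest to H2-Aa among 4557 genes were Cryl1 (0.32), Sox18 (0.34), Ager (0.35), a pattern receptor, Ehd1 (0.38), of endocytic recycling, and Fibp (0.42). For H2-Aa, 3 of the 5 values had been raised to the floor, so its profile was partly set by the floor. Whether such closeness exceeds chance among so many genes was not tested.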

How the data were processed

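Total RNA of 5 samples in 1 group was measured on 1-colour arrays. The authors deposited 1 linear intensity per probe set and array; the software and scaling behind it are not given in the sources used here. Of 12488 probe sets, 66 controls were left out. Each array was scaled to a common median of 103. Genes were named through the supplied platform annotation: 10833 probe sets had 1 symbol, 396 had several and 1193 were not listed. Where a gene had several probe sets, the one brightest on average (log2) stood for it. Position against the array median was tested with limma 3.58.1 in R 4.3.3 (intercept only, eBayes with trend and robust), and spread with the variance of each gene against limma's robust F distribution. Both were tested on simulated data. For the spread test the simulated rise in spread was many times the median SD, so smaller rises were not tried. The threshold was an adjusted p of 0.05.

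The members and gene lists were chosen with earlier results of these data known. The rule for naming took all members, the measured genes of the lists and the 5 genes nearest in profile to Cd74 and to H2-Aa. List genes not named in the text are in the counts, and those given with values were picked after the values were seen. The number of arrays limits the precision. A planned comparison of protein sequences was not run.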

Additional observations from a re-analysis of the deposited data

Results flagged for a closer look

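Dixon's test took 1 probe set, the brightest on average, for each member and listed gene, 77 in all. In 6, a sample lay farther from the others than the limit of 0.71 for groups of 5, where chance flags about 1 in 20. Further probe sets of the same genes were left out. For members, the low sample was sample 3 both times: H2-Oa had 32.9 there and Ifi30 74.1. Among listed genes, H2-Ea was high in sample 1 at 34.3, Prdm1 in sample 1 at 103 and Cd83 in sample 2 at 102.7, and Fscn1 was low in sample 4 at 215. A further probe set of Cd83 was highest in sample 1 at 64.9 and had 16.5 in sample 2.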

How the results depend on the processing

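Each alternative changed 1 choice, except that trend and robust fit were dropped together. Cd74, H2-DMa, H2-Ab1 and H2-Ob kept their calls under every alternative with the limit at the median, except that the dimmer probe set put H2-DMa at -0.92, below the median. With every probe set tested, 2 of 11 were called above and 3 below, and H2-Aa (limma adjusted p = 0.0573), H2-Eb1 (0.0673) and Ifi30 (0.0587) lost their calls. With the dimmer probe set, 4 members were called in all instead of 7, 1 of them above, and 1 member instead of 2 exceeded the median on all arrays. Moving the limit moved the counts by construction. At the 40th percentile 4 members were called, 1 of them below, and the distances of H2-DMb1 (0.23), H2-Oa (0.27) and Ciita (0.20) turned positive, none called. At the 75th percentile 0 members were called above and 8 below, 0 exceeded the limit on all arrays, and Cd74 (-0.12) and Ifi30 (-0.92) turned negative. Without a trend and robust fit 4 members were called, 2 of them below, and H2-Aa, H2-Eb1 and Ifi30 lost their calls. H2-Eb1 missed the threshold after quantile normalization (limma adjusted p = 0.0515) and with a floor of 1 unit (0.0515). With 1 sample left out, 4 to 6 members were called, 2 to 4 of them below. The variance test called 0 members and 0 of all genes tested under every alternative run. Of 142 values of single members, 106 kept direction and side of the threshold, 26 lost their call, 3 gained one and 7 turned sign. No paired analysis was possible because there was 1 group. The number of arrays and the lack of a detection call limit statements on the dim chain genes.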
